A study of Mus musculus with 4 samples.

Results

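The Zfp9xx genes are the mouse zinc finger genes whose symbol is Zfp followed by a 3-digit number that begins with 9. They were taken by name from tables of chromatin accessibility in RAW264.7, a macrophage-like mouse cell line, and 30 of 26614 gene names matched, with 57 of 80925 named regions. The assay was ATAC-seq, which marks open DNA by the insertions of a transposase, and the authors named each region by its nearest gene. Of the 4 libraries, 2 are titled Gel and 2 CuNZ@Gel, the latter being the nanozyme hydrogel of the series, and all cells were cultured for 48 h after treatment. The titles are the only source of the groups: one treatment text, naming CuNZ@Gel alone, is attached to every sample, and it leaves the treatment of the Gel cells in conflict with their titles. The labels name no genotype or further agent. Nor do they state that replicates came from separate cultures, and the p-values cover only the spread of these libraries, possibly a technical one.

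Zfp9xx proteins carry C2H2 zinc fingers, small zinc-coordinating units that read DNA sequence when strung in arrays. Many mouse Zfp genes of this kind also encode a KRAB domain, which recruits the corepressor TRIM28. TRIM28 in turn brings the histone methyltransferase SETDB1 and heterochromatin proteins of the HP1 family, and this machinery silences transposable elements, chiefly endogenous retroviruses. The genes often lie in tandem clusters that arose by duplication. Zfp932 is known as a repressor of ERVK elements, a class of endogenous retroviruses. The RefSeq gene table holds 62 Zfp9xx symbols, and 30 of them named a region. The accessibility of the other 32 is not analysed here, and only counts over their promoters are given below.

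RefSeq promoter sequences (GRCm38.p6, 250 bases before to 50 after the start) were found for 29 of the 30 genes, as 33 promoters. All 10-base words in them were counted on both strands, a search made after the sequences had been seen. The 2 words shared by most member genes, 6 each, contained the CCAAT box, a common promoter element. Of the words without CCAAT, GTCACTCAAG was held by most, 5 genes, and in each of the 5 the longer form CCAATCAG followed after 9 bases. The following 40-base windows, 5′ to 3′ on the gene's strand, show that arrangement, with the 10-letter run and each CCAAT (or ATTGG, its reverse complement) in capitals:
Zfp971: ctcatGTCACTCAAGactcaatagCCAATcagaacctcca
Zfp931: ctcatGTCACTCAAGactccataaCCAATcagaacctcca
Zfp932: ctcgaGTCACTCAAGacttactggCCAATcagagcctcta
Zfp958: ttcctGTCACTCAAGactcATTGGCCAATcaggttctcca
Zfp938: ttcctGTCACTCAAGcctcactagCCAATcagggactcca
The windows lie at chr2:178023182-178023221 on the plus strand, chr2:178078518-178078557 on the minus strand, chr5:109996431-109996470 on the plus strand, chr8:4613081-4613120 on the plus strand and chr10:82241330-82241369 on the minus strand. The 10-letter run begins 97, 127, 74, 84 and 89 bases before the start of Zfp971, Zfp931, Zfp932, Zfp958 and Zfp938.

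Counted on both strands, GTCACTCAAG was in 8 of the 33 member promoters (24.2%) and in 91 of all 32851 promoters in the table (0.277%). The 82 genes that hold it include 17 numbered Zfp genes and 41 genes named only as Gm or Rik models. With exactly 9 bases before CCAATCAG it was in 58 promoters of 50 genes, of which 14 were numbered Zfp genes. The longer CCAAT form CCAATCAG was in 16 member promoters (48.5%) against 4.10% of all promoters. CCAAT itself, contained in that form, was in 23 member promoters (69.7%) against 37.4%. TATAAA was in none of the member promoters against 13.6% of all. TGANTCA, where N is any base, was in none against 7.81%, and it takes in more than the AP-1 motif of inflammatory gene regulation. GGGCGG was in 30.3% against 35.7%, CCGGAAG, the ETS core, in 21.2% against 8.86%, and CACGTG, the E-box, in 15.2% against 7.15%. Some genes hold several starts: counted by gene, CCGGAAG was in 4 of 29 (13.8%, against 9.93% of all genes), GTCACTCAAG in 5 (17.2% against 0.303%), CCAATCAG in 12 (41.4% against 4.70%) and CCAAT in 19 (65.5% against 41.1%). TGACGTCA was in 1 member promoter (3.03%) against 1.79%. GTCACTCAAG was picked because it was the word without CCAAT that most member genes held, so its share among members is high by that choice. CCAATCAG was named beside it, after the sequences had been seen. For these 2 words the shares over all promoters are therefore no test of an excess. Related promoters are not independent, and a match is a description of letters, not a site of binding.

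The promoters of Zfp942 and Zfp944, which lie in the same cluster on chromosome 17, were 91.3% identical and shared an unbroken run of 207 bases, whereas the median identity over the 406 pairs of member genes was 59.0%. Their 150 bases before the start show the shared run, shifted against each other, and are printed because the values of such loci depend on how reads that match both were placed, which is not given in the sources used here:
Zfp942: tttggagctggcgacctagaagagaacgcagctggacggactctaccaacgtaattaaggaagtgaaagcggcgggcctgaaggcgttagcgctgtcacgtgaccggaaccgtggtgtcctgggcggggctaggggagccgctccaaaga
Zfp944: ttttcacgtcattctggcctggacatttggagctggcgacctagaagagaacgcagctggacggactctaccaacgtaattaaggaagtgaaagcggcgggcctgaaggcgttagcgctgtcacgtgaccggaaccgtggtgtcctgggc
These stretches lie on the minus strand at chr17:21962465-21962614 and chr17:22361401-22361550. Zfp931 and Zfp971, neighbours on chromosome 2, were 87.3% identical, with an unbroken run of 81 bases.

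Among the values given below, Zfp941 was the only gene called higher as a whole on the deposited scaling. The single region of Zfp963 was the strongest, and Zfp956 held the steepest rise of a region. The other 3 sequences belong to these members. Each is the 150 bases before the start, with CCAAT or ATTGG in capitals:
Zfp941: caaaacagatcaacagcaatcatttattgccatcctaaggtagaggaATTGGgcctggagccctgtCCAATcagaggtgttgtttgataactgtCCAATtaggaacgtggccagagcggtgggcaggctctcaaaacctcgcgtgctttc
Zfp963: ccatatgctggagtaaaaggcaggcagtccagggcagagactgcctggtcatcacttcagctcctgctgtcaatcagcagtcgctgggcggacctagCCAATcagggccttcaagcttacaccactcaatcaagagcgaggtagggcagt
Zfp956: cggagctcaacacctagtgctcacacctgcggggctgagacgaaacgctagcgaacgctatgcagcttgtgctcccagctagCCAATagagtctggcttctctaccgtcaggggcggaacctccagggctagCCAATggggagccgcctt
They lie at chr7:140822179-140822328 (minus strand), chr8:69749963-69750112 (minus strand) and chr6:47953240-47953389 (plus strand). The accessible regions have GRCm39 coordinates and the promoters GRCm38.p6 coordinates, so they were not overlaid, and whether a region covers a promoter was not analysed here.

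The values are reads in regions scaled to 1000000 effective reads (RPM), deposited as log2(RPM + 1). Gel replicates 1 and 2 held 18843252 and 17914600 reads in regions, and CuNZ@Gel replicates 1 and 2 held 7440949 and 10236696, so low regions are less precisely measured in CuNZ@Gel. Reads in regions were also set against the genome background pileup, a value recovered from the authors' peak folds. This ratio, in units of 1000000, was 18.8 and 18.6 for the Gel libraries, whereas the CuNZ@Gel libraries had 6.37 and 8.53. This difference coincides with the groups, and its part in any change below cannot be told apart from the treatment. Of 10 macrophage markers 9 named a region, none of the 9 at 0. Their summed level was 1257 and 1303 RPM in Gel and 947 and 977 RPM in CuNZ@Gel. On the deposited scaling 7 of the 9 were called lower and 1 higher, against 36.1% and 20.5% of all genes. Their median mean log2 level was 7.07, against 4.41 over all tested genes. With the trend of change with level removed by cyclic loess, 3 were lower and 3 higher, against 15.4% and 20.7% of all genes. Fibroblast markers (4 of 6 named) summed to 41.5 to 43.0 RPM in Gel and 47.1 to 49.2 RPM in CuNZ@Gel, lymphocyte markers (5 of 6) to 84.2 to 87.3 and 58.3 to 65.4 RPM, and epithelial markers (2 of 4) to 10.7 to 11.0 and 11.2 to 15.4 RPM. The part of these in the results below was not tested.

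The number of regions per Zfp9xx gene was low. A single region was assigned to 13 genes, 2 regions to 9, 3 regions to 6 and 4 regions to 2 (Zfp946 and Zfp950), a mean of 1.90 regions against 3.04 over all genes and a median of 2 in both. Per length, Zfp963 led with 79.6 and 77.0 RPM per kilobase of its region in Gel and 59.9 and 44.7 in CuNZ@Gel. Zfp983 followed with 48.4 and 50.9 RPM per kilobase in Gel and 32.1 and 31.5 in CuNZ@Gel. Zfp964 had 43.3 and 43.8 RPM per kilobase in Gel and 27.1 and 31.5 in CuNZ@Gel, so that Zfp983 and Zfp964 were separated in Gel and overlapped in CuNZ@Gel. At the other end Zfp931 had 5.38 and 3.02 RPM per kilobase in Gel. The lowest gene, Zfp942, had 10 and 5 reads in Gel and 11 and 4 in CuNZ@Gel and did not pass the filter on low values, which asks for 10 reads at the median depth in 2 libraries and 15 reads in all. The filter also removed the third region of Zfp948 (0 and 0 reads in Gel, 18 and 4 in CuNZ@Gel) and the second region of Zfp958 (0 and 9 reads in Gel, 6 and 1 in CuNZ@Gel), leaving 29 genes and 54 regions for the tests.

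**Figure D1:**
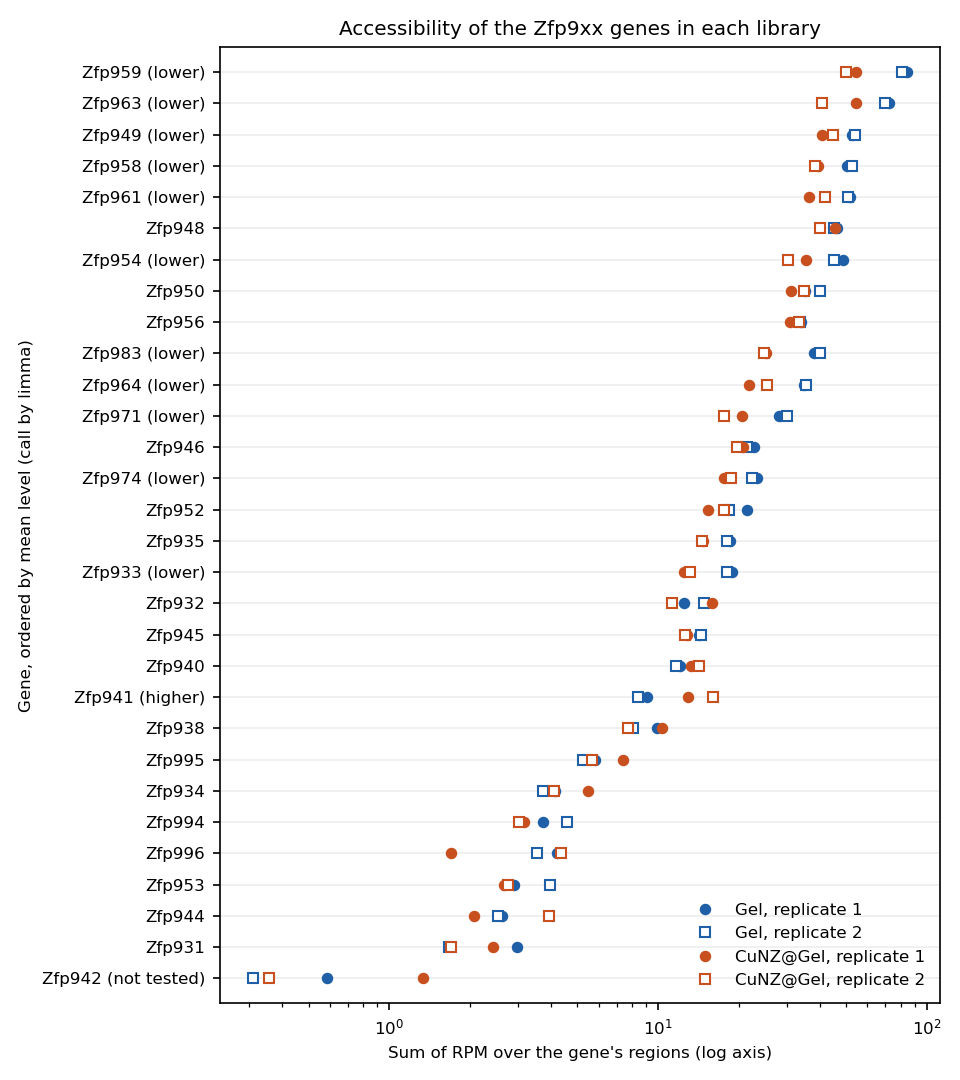
Level of each of the 30 Zfp9xx genes in each library, as the sum of RPM over the gene's regions on a log axis, with filled circles for replicate 1 and open squares for replicate 2 of Gel (blue) and CuNZ@Gel (orange). On the deposited scaling, CuNZ@Gel lay below Gel without overlap in 19 of the 29 tested genes and above it in 2, and with the libraries scaled to background pileup no gene was called higher.

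Summed over its regions, accessibility near the Zfp9xx genes was lower in CuNZ@Gel for 11 of 29 genes and higher for 1, Zfp941, by limma across all genes with Benjamini-Hochberg adjustment. Over all genes 36.1% were called lower and 20.5% higher, so the share of members called lower, 37.9%, lay near the background and the share called higher, 3.45%, below it. The median change of the members (CuNZ@Gel minus Gel, log2) was -0.26, against -0.10 over all genes. These counts depend on the scaling: removing the trend of change with level by cyclic loess left 2 genes higher and 3 lower, region totals gave 2 higher and 5 lower, median-of-ratios factors 1 higher and 9 lower, and scaling to background pileup 0 higher and 28 lower. Over all genes the shares called higher and lower were 20.7% and 15.4% with cyclic loess, 34.3% and 18.7% with region totals, 25.9% and 27.7% with median-of-ratios factors, and 2.77% and 75.5% on background pileup. For genes, the trend was removed over regions before these were summed. Cyclic loess on the gene sums themselves, added after the data were seen, gave 1 gene higher and 8 lower (24.2% and 22.8% of all genes). The median over all genes was itself 0.15 with region totals and -1.06 on the background scale, against -0.31 for Zfp941 there.

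Zfp959, on chromosome 17 outside the cluster described below, had the largest fall of the 29 tested genes on the deposited scaling with all 4 libraries. In other settings other genes stood lower, among them the following. With the trend removed, where Zfp959 was at -0.34, Zfp971 (-0.49) and Zfp933 (-0.35) were called and stood below it. Zfp996 (-0.52), Zfp994 (-0.49) and Zfp953 (-0.43) also stood below it there but were not called. In the fit of strongest regions Zfp971 was lower (-0.87 against -0.84). Without Gel replicate 1 Zfp983 (-0.66) and Zfp971 (-0.64) were lower than Zfp959 (-0.62). Without CuNZ@Gel replicate 1 Zfp963 was lower (-0.79 against -0.72), and without CuNZ@Gel replicate 2 Zfp964 (-0.66) and Zfp983 (-0.61) were lower than Zfp959 (-0.59). With cyclic loess on gene sums Zfp933 (-0.51), Zfp971 (-0.49), Zfp983 (-0.43) and Zfp964 (-0.39) were lower than Zfp959 (-0.30). The 3 regions of Zfp959 summed to 84.4 and 80.8 RPM in Gel and 54.4 and 49.8 RPM in CuNZ@Gel, or 82.6 ± 2.51 against 52.1 ± 3.25 RPM (mean ± SD, n = 2 per group). Both CuNZ@Gel libraries lay below both Gel libraries, as in 19 of the 29 genes (45.9% of all genes), while in 2 they lay above (30.9% of all genes). The log2 change was -0.65 ± 0.08 (SE; limma adjusted p = 4.34e-07), and with the trend removed it was still called, at -0.34 (limma adjusted p = 0.00114).

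Zfp983 had 38.0 and 40.0 RPM in Gel and 25.2 and 24.7 RPM in CuNZ@Gel, and fell by 0.62 ± 0.10 (limma adjusted p = 2.57e-05). Zfp971 had 28.2 and 30.1 RPM in Gel and 20.5 and 17.6 RPM in CuNZ@Gel, and fell by 0.59 ± 0.12 (limma adjusted p = 0.000258). Zfp963 had 72.2 and 69.8 RPM in Gel and 54.3 and 40.5 RPM in CuNZ@Gel, and fell by 0.59 ± 0.10 (limma adjusted p = 5.80e-05). In each of these genes the 4 values separated by group, but the CuNZ@Gel values of Zfp963 lay far apart, and leaving out CuNZ@Gel replicate 1 or 2 put its change at -0.79 or -0.38. Zfp971 kept its call with the trend removed (-0.49, limma adjusted p = 0.00223), Zfp983 was at -0.26 (limma adjusted p = 0.0511) and Zfp963 at -0.02 (limma adjusted p = 0.874). With cyclic loess on gene sums, Zfp983 (-0.43) and Zfp963 (-0.25) were called lower (limma adjusted p = 0.00120 and 0.0413).

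Zfp964, the chromosome 8 neighbour of Zfp963, had 34.9 and 35.3 RPM in Gel and 21.8 and 25.4 RPM in CuNZ@Gel, and fell by 0.56 ± 0.11 (limma adjusted p = 0.000201). Zfp954 had 48.6 and 45.1 RPM in Gel and 35.4 and 30.5 RPM in CuNZ@Gel, and fell by 0.50 ± 0.10 (limma adjusted p = 0.000217). Zfp933 had 18.8 and 17.9 RPM in Gel and 12.5 and 13.1 RPM in CuNZ@Gel, and fell by 0.49 ± 0.14 (limma adjusted p = 0.00461). All 4 libraries again separated by group in each. With the trend removed Zfp933 was called at -0.35 (limma adjusted p = 0.0491), while Zfp964 was at -0.22 and Zfp954 at -0.10, neither called. Cyclic loess on gene sums did call Zfp964 (-0.39) and Zfp954 (-0.24) lower (limma adjusted p = 0.00489 and 0.0478). Zfp933 lost its call without Gel replicate 1 (-0.46, limma adjusted p = 0.0584).

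The falls of Zfp958, Zfp961, Zfp949 and Zfp974 were smaller. Zfp958 went from 50.4 and 52.3 RPM to 39.4 and 38.4 RPM, a change of -0.39 ± 0.09 (limma adjusted p = 0.000616), and Zfp961 from 51.6 and 50.8 RPM to 36.2 and 41.8 RPM, a change of -0.39 ± 0.09 (limma adjusted p = 0.00124). Zfp949 went from 52.4 and 53.8 RPM to 40.5 and 44.6 RPM, a change of -0.31 ± 0.09 (limma adjusted p = 0.00405). Zfp974 went from 23.3 and 22.3 RPM to 17.6 and 18.6 RPM, a change of -0.32 ± 0.12 (limma adjusted p = 0.0299). The groups did not overlap in any of the 4, but none was called with the trend removed, where Zfp958 stood at 0.01. Zfp974 also lost its call when Gel replicate 1 (-0.29), Gel replicate 2 (-0.35) or CuNZ@Gel replicate 1 (-0.28) was left out.

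Zfp941, on chromosome 7, was the only gene called higher on the deposited scaling. It had 9.10 and 8.42 RPM in Gel and 12.9 and 16.0 RPM in CuNZ@Gel, or 8.76 ± 0.484 against 14.4 ± 2.22 RPM (mean ± SD, n = 2 per group). Both CuNZ@Gel libraries lay above both Gel libraries, and the log2 rise was 0.65 ± 0.16 (limma adjusted p = 0.00175). It stayed called higher with the trend removed (0.54, limma adjusted p = 0.0110) and stood at -0.31 on the background scale. Its 2 regions differed. The one at chr7:140408106-140408753 (GRCm39) had 3.33 and 3.84 RPM in Gel and 8.73 and 11.5 RPM in CuNZ@Gel, while the one 22.5 kb before it had 5.77 and 4.58 RPM in Gel and 4.12 and 4.44 RPM in CuNZ@Gel, with authors' peaks in both Gel lists only. The first rose by 1.27 ± 0.20 (limma adjusted p = 7.67e-07) and the second was not called.

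The other 17 tested genes were not called, with changes from -0.35 to 0.22, 12 below 0 and 5 above. Zfp948, the highest of them, had 46.1 and 45.2 RPM in Gel and 45.5 and 40.0 RPM in CuNZ@Gel, with a change of -0.10 ± 0.09 (limma adjusted p = 0.388). The groups overlapped, and with the trend removed Zfp948 was called higher, at 0.25 (limma adjusted p = 0.0404). Cyclic loess on gene sums put Zfp948 at 0.19, not called (limma adjusted p = 0.0980). Zfp946, with 4 regions, had 22.7 and 21.4 RPM in Gel and 20.7 and 19.6 RPM in CuNZ@Gel, with a change of -0.12 ± 0.12 (limma adjusted p = 0.406). Zfp932, the known ERVK repressor, had 12.5 and 14.8 RPM in Gel and 15.9 and 11.3 RPM in CuNZ@Gel, so its CuNZ@Gel values spanned the Gel values.

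**Figure D2:**
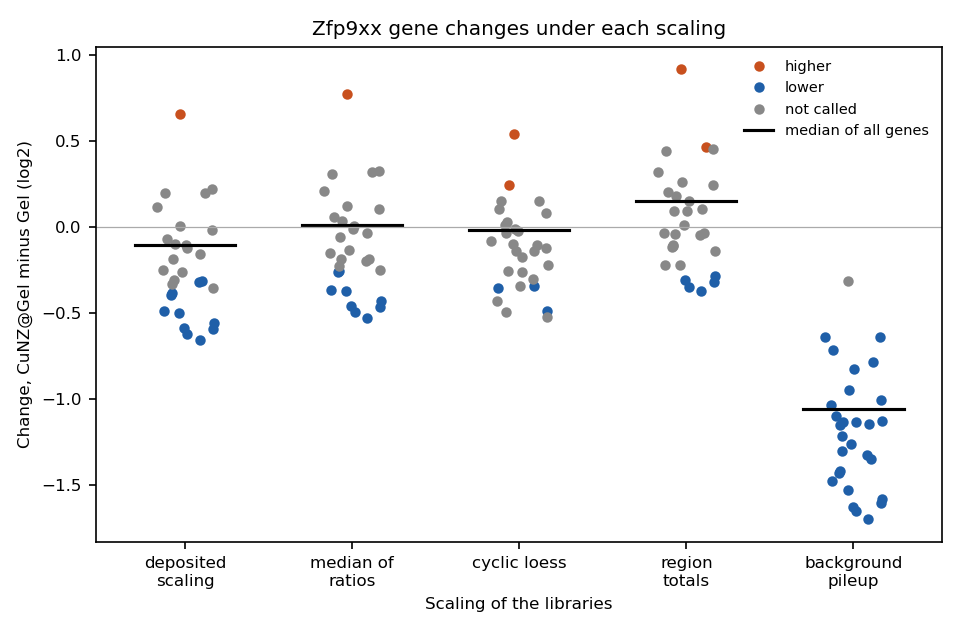
Change of the 29 tested Zfp9xx genes (points, spread sideways for display; orange called higher, blue called lower, grey not called) under 5 ways of scaling the libraries, with the median of all genes as a black line. Counts of members called higher and lower were 1 and 11 on the deposited scaling and 0 and 28 on background pileup, where the median of all genes was -1.06.

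Single regions were called more evenly than gene sums. Of the 54 tested regions 7 were higher and 17 lower in CuNZ@Gel by limma, or 13.0% and 31.5%, where all regions gave 21.2% higher and 21.9% lower. With the trend removed, 5 were higher and 7 lower (18.8% and 13.8% of all regions), of which 4 and 6 were also called that way on the deposited scaling, the fifth rise being the strongest Zfp948 region; on background pileup the counts were 1 and 39 (4.85% and 60.6%), and with region totals 10 and 8 (30% and 11.9%). The median change was -0.17 among member regions and -0.00 among all. The calls followed level. Of the 15 member regions with a mean log2 value of 4 and above, 14 were lower and 0 higher, where all regions of that level gave 66.5% lower and 9.1% higher. Of the 16 below 2, 4 were higher and 0 lower (24.9% and 2.08% of all such regions), and of the 23 from 2 to 4, 3 were higher and 3 lower (24.7% and 13.7%). With the trend removed the highest class held 3 lower and 1 higher (21% and 21.3% of all such regions), the middle class 3 and 3 (15.6% and 21.9%) and the lowest 1 and 1 (6.73% and 13.3%). The 1 region of the highest class not called was the strongest region of Zfp948.

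**Figure D3:**
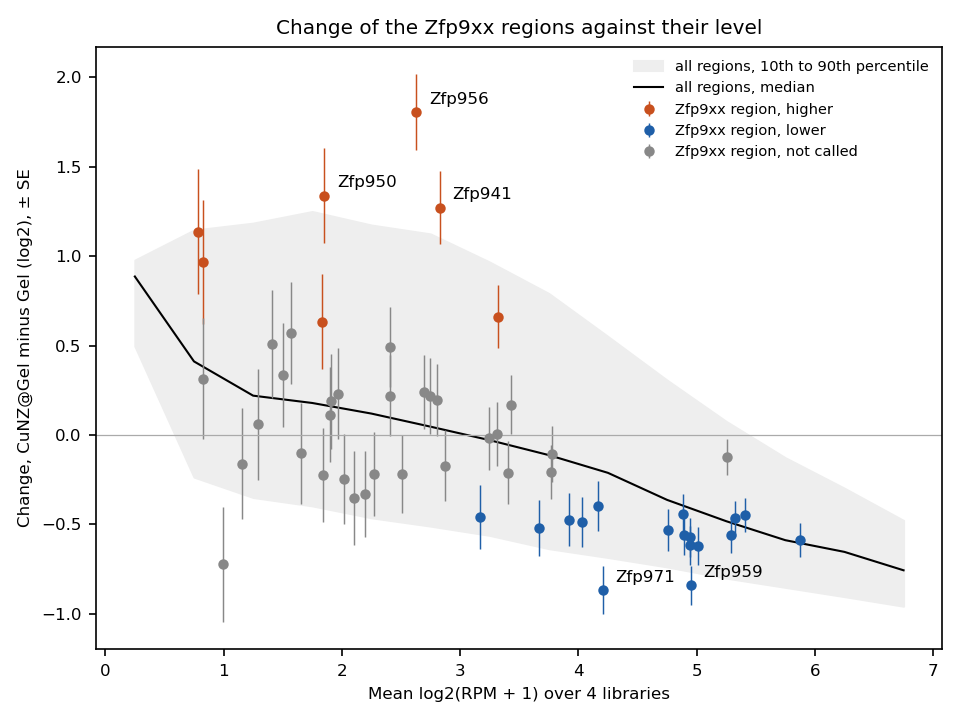
Change of the 54 tested Zfp9xx regions (CuNZ@Gel minus Gel, log2, bars ± SE) against mean log2(RPM + 1), with the median (line) and the 10th to 90th percentile (grey) of all regions in bins of level. On the deposited scaling the labelled Zfp956, Zfp950 and Zfp941 regions lie above the grey band and the labelled Zfp971 and Zfp959 regions below it, as does an uncalled Zfp961 region at a mean near 1.

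Of the regions called lower, 1 of Zfp971 and 1 of Zfp959 lay below the 10th percentile of all regions of like level, a comparison made after their values were seen. The third Zfp961 region, not called at -0.72, also lay below it (-0.24 in its bin). The Zfp971 region at chr2:177662411-177663075 had 22.8 and 25.1 RPM in Gel and 12.6 and 12.7 RPM in CuNZ@Gel, and fell by 0.87 ± 0.13 (limma adjusted p = 4.28e-07), against a 10th percentile of -0.69 in its bin. Its second region, 2.31 kb away, had 5.42 and 5.01 RPM in Gel and 7.88 and 4.89 RPM in CuNZ@Gel, which overlap. The Zfp959 region at chr17:56198695-56199612 had 40.5 and 40.3 RPM in Gel and 23.5 and 20.8 RPM in CuNZ@Gel, and fell by 0.84 ± 0.11 (limma adjusted p = 9.22e-09), against a 10th percentile of -0.74. Both regions separated the groups and stayed called with the trend removed, at -0.69 and -0.49. The second Zfp959 region, chr17:56185108-56186388, had 39.3 and 35.3 RPM in Gel and 25.0 and 22.9 RPM in CuNZ@Gel, and fell by 0.62 ± 0.11 (limma adjusted p = 6.55e-06), at -0.27 with the trend removed (limma adjusted p = 0.0541). Just before it, the third Zfp959 region, chr17:56184335-56184519, was the only member region with a peak in both CuNZ@Gel lists and neither Gel list, yet its 4.66 and 5.26 RPM in Gel and 5.94 and 6.13 RPM in CuNZ@Gel were close and it was not called.

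Of the 17 genes with 2 or more tested regions, 5 held regions called in opposite directions, 29.4% against 24.5% of all such genes: Zfp956, Zfp950, Zfp949, Zfp952 and Zfp954. In each of them the strongest region was lower in CuNZ@Gel and a weaker region was higher on the deposited scaling. None of the 5 strongest regions was called with the trend removed, at -0.23 in Zfp956, -0.11 in Zfp950, -0.22 in Zfp949, -0.23 in Zfp952 and -0.13 in Zfp954 (limma adjusted p = 0.131, 0.497, 0.113, 0.206 and 0.339). Opposite calls then stayed in 1 of the 17 genes, Zfp949 (5.88% against 16.4% of all such genes), between its rising region and the region next to it (-0.50). Zfp956 had the widest split on the deposited scaling. Its strongest region, chr6:47930068-47930813, had 31.8 and 31.2 RPM in Gel and 19.8 and 23.4 RPM in CuNZ@Gel, a change of -0.53 ± 0.12 (limma adjusted p = 0.000168). Its other region, 9.80 kb away at chr6:47940027-47940455, had 2.16 and 2.48 RPM in Gel and 11.2 and 10.0 RPM in CuNZ@Gel, a rise of 1.81 ± 0.21 (limma adjusted p = 5.94e-10). The groups stood far apart in the second region, and this was the only member region called higher under every scaling tried (1.69 with the trend removed, 0.94 on background pileup with limma adjusted p = 0.00118). The sum over both regions, 33.9 and 33.7 RPM against 30.9 and 33.4 RPM, showed no call.

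Zfp950 showed the same arrangement of calls, with its rising region at a lower level than that of Zfp956. Its strongest region, chr19:61128854-61129655, had 31.2 and 35.8 RPM in Gel and 23.6 and 25.1 RPM in CuNZ@Gel, a change of -0.44 ± 0.11 (limma adjusted p = 0.00104). A region 29.7 kb before it, chr19:61099392-61099697, had 0.933 and 1.67 RPM in Gel and 4.61 and 4.89 RPM in CuNZ@Gel, a rise of 1.34 ± 0.26 (limma adjusted p = 3.71e-05) that was called with the trend removed (1.14) but not on background pileup (0.60, limma adjusted p = 0.0612). The groups did not overlap in either region. It rested on 16 and 27 reads in Gel and 38 and 55 in CuNZ@Gel. The other 2 regions of Zfp950 were not called.

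Zfp949 held 2 falling regions and 1 rising region within 10 kb. The strongest, chr9:88429135-88430596, had 35.3 and 37.7 RPM in Gel and 23.0 and 25.5 RPM in CuNZ@Gel, a change of -0.57 ± 0.11 (limma adjusted p = 2.27e-05). The rising region, chr9:88421737-88422326, had 7.93 and 6.07 RPM in Gel and 10.7 and 12.5 RPM in CuNZ@Gel, a change of 0.66 ± 0.18 (limma adjusted p = 0.00177). It stood apart between groups and was called with the trend removed, but lost its call without Gel replicate 2 (0.49, limma adjusted p = 0.0949) and was at -0.29 on background pileup.

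The rising regions of Zfp952 and Zfp954 were near the limit of detection. The Zfp952 region, chr17:33204444-33204650, had 6 and 0 reads in Gel and 19 and 11 in CuNZ@Gel, and the Zfp954 region, chr7:7104843-7105053, had 5 and 4 reads in Gel and 20 and 9 in CuNZ@Gel. Their fitted changes were 1.14 ± 0.35 and 0.97 ± 0.35 (limma adjusted p = 0.00651 and 0.0205), and neither was called with the trend removed or on background pileup. The Zfp952 region lost its call when Gel replicate 2 (0.92) or CuNZ@Gel replicate 1 (0.77) was left out, and the Zfp954 region without Gel replicate 1 (0.99), Gel replicate 2 (0.94) or CuNZ@Gel replicate 1 (0.50). The strongest regions of these 2 genes had 21.0 and 18.3 RPM in Gel against 13.0 and 16.5 RPM in CuNZ@Gel, and 48.3 and 44.9 RPM against 33.0 and 29.7 RPM. The Zfp932 region at chr5:110161513-110161715, named here after its values were seen, had 31 and 31 reads in Gel and 35 and 31 in CuNZ@Gel, or 1.81 and 1.92 RPM against 4.24 and 2.75 RPM, and had authors' peaks in both Gel lists only. It was called higher by a narrow margin (0.63 ± 0.27, limma adjusted p = 0.0497) and not with the trend removed.

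**Figure D4:**
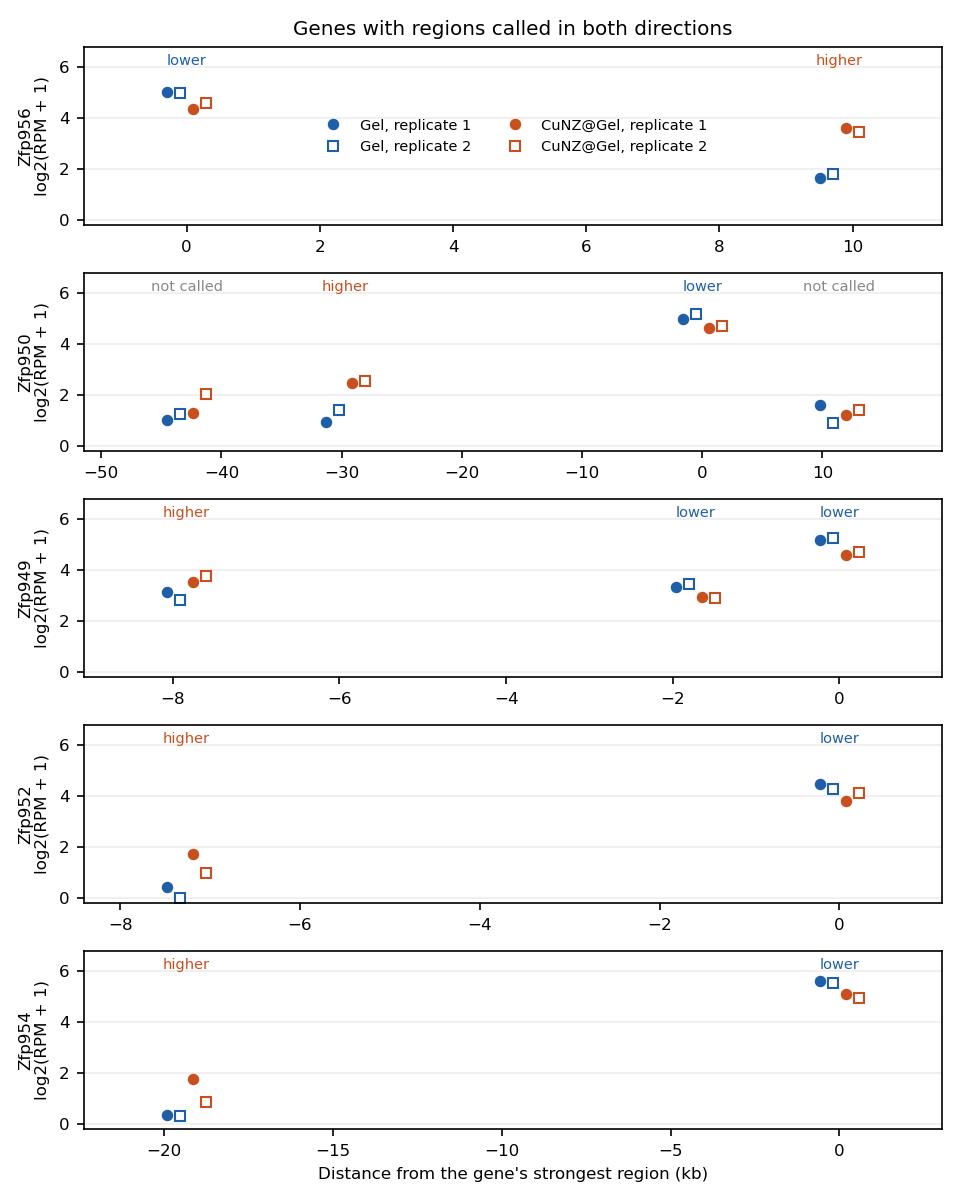
Level of every region of the 5 Zfp9xx genes with regions called in opposite directions, in each library (points shifted slightly sideways), against distance from the gene's strongest region, with the limma call on the deposited scaling above each region. On that scaling the region at 0 kb is called lower in CuNZ@Gel and 1 weaker region higher in all 5 genes; with the trend removed none of the 5 regions at 0 kb is called, and of the rising regions those of Zfp956, Zfp950 and Zfp949 are.

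Across all members, the strongest region of each gene was lower in 15 of 29 genes and higher in 1, the Zfp941 region, where all genes gave 40.1% and 15.3%. The other 25 tested regions were higher in 6 and lower in 2, where all such regions gave 24.2% and 12.7%. After removal of the trend, 5 strongest regions were lower and 2 higher (16.1% and 17.9% of all genes), and of the other regions 3 were higher and 2 lower (19.2% and 12.6%). The strongest member regions were also wider, with a median of 795.5 bases against 366 for the other member regions. Peaks called by the authors in all 4 libraries covered 29 of the 57 member regions (50.9%, against 39.6% of all regions), peaks of both Gel libraries only covered 5 (8.77% against 11.0%), and peaks of both CuNZ@Gel libraries only covered 1 (1.75% against 2.28%).

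The members lay on 12 chromosomes, 16 of them alone and 14 in 4 clusters with gaps of at most 1 Mb between neighbouring members' regions. The largest cluster, chr17:21786355-23097158, held 8 genes in the order Zfp948, Zfp983, Zfp995, Zfp942, Zfp994, Zfp944, Zfp946 and Zfp945, with 14 regions. Of its 7 tested genes only Zfp983 was called on the deposited scaling, as lower, where all genes gave 36.1% lower and 20.5% higher. The median change was -0.12, with a range from -0.62 to 0.20. With the trend removed Zfp983 was not called (-0.26, limma adjusted p = 0.0511), while Zfp948 was called higher (0.25, limma adjusted p = 0.0404). With cyclic loess on gene sums the reverse held: Zfp983 was called lower (-0.43) and Zfp948 was not called (0.19). Zfp983 and its neighbour Zfp948 had like levels in Gel in their strongest regions (38.0 and 40.0 RPM against 38.2 and 39.5 RPM) but not in CuNZ@Gel (25.2 and 24.7 RPM against 37.5 and 33.7 RPM). The difference between these neighbours was not tested. Zfp995, Zfp994 and Zfp944 had 2.06 to 7.40 RPM in every library.

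**Figure D5:**
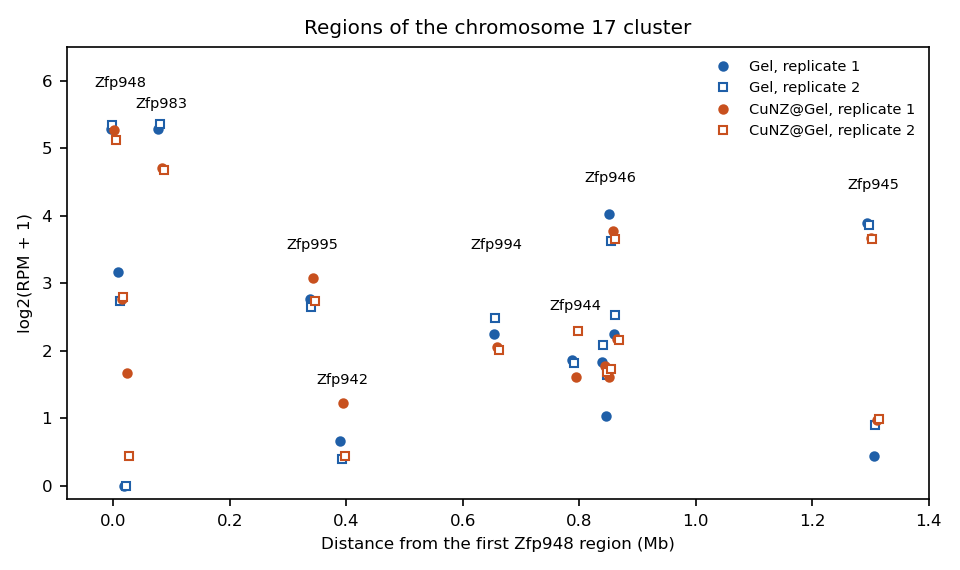
Regions of the 8 Zfp9xx genes of the chromosome 17 cluster, with log2(RPM + 1) in each library (points shifted slightly sideways) against distance from the first Zfp948 region. The single Zfp983 region is the only one of the 12 tested regions called lower on the deposited scaling, and its 2 CuNZ@Gel points lie below its 2 Gel points; with the trend removed it was at -0.26 and not called.

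In the chromosome 8 pair both Zfp964 and Zfp963 fell, as given above. In the chromosome 2 pair Zfp971 fell while Zfp931 had 2.98 and 1.67 RPM in Gel and 2.42 and 1.69 RPM in CuNZ@Gel, which overlap. In the chromosome 13 pair neither Zfp935 nor Zfp934 was called; Zfp935 had 18.5 and 18.1 RPM in Gel and 14.7 and 14.5 RPM in CuNZ@Gel, with the groups apart (limma adjusted p = 0.0528), and Zfp934 had 4.14 and 3.71 RPM against 5.46 and 4.09 RPM. Of the pair with the near-identical promoter stretches printed above, Zfp944 had 2.63 and 2.54 RPM in Gel and Zfp942 had 0.583 and 0.309 RPM.

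Set against promoter sequence, 8 of the 19 tested genes with a CCAAT box in their promoter were lower and 1 higher, with a median change of -0.33 and a median mean log2 level of 4.62. Of the 9 tested genes without one, 3 were lower and 0 higher, with a median change of -0.16 and a median level of 4.03, so the classes also differed in level. The shares called lower, 42.1% and 33.3%, lay on either side of the 36.1% over all genes, and 20.5% of all genes were higher. Of the 5 genes with GTCACTCAAG, Zfp971 and Zfp958 were lower and Zfp931, Zfp932 and Zfp938 were not called, with changes from -0.59 to 0.00 and a median of -0.10. Member promoters held a median of 10 CpG dinucleotides per 300 bases, with a range from 3 to 25, against 7 in all promoters. The 30 promoters of the Zfp9xx symbols that named no region held a median of 5, and 86.7% of them had CCAAT, against 69.7% of the promoters of members; names can differ between annotation versions.

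Genes of the KRAB repression machinery mostly fell on the deposited scaling. Of 26 listed partners 24 were tested, and 16 were lower and 2 higher, with a median change of -0.44, where all genes gave 36.1% lower and 20.5% higher. Removing the trend left 7 lower and 5 higher, against 15.4% and 20.7% of all genes, with a median of -0.08. The partners' median mean log2 level, 5.80, was above the 4.41 of all tested genes, and its part in these counts was not tested. Trim28 and Daxx are not analysed here. Setdb1, the histone methyltransferase, had 19.1 and 21.2 RPM in Gel and 17.1 and 14.0 RPM in CuNZ@Gel, a change of -0.36 ± 0.14 (limma adjusted p = 0.0308) that was not called with the trend removed (-0.18) or without Gel replicate 1 (-0.43), Gel replicate 2 (-0.29) or CuNZ@Gel replicate 2 (-0.22). Atf7ip, the partner that stabilises SETDB1, had 110.2 and 104.5 RPM in Gel and 74.1 and 70.8 RPM in CuNZ@Gel, and fell by 0.56 ± 0.07 (limma adjusted p = 5.05e-07), at -0.22 with the trend removed (limma adjusted p = 0.0104). Cbx5, which encodes HP1 alpha, had 206.1 and 193.5 RPM in Gel and 113.7 and 118.2 RPM in CuNZ@Gel, and fell by 0.78 ± 0.05 (limma adjusted p = 5.20e-10), but was at 0.09 with the trend removed. Morc3, a chromatin ATPase, had 96.9 and 89.1 RPM in Gel and 65.0 and 70.3 RPM in CuNZ@Gel, a change of -0.45 ± 0.07 (limma adjusted p = 2.02e-05) that turned to 0.19 with the trend removed (limma adjusted p = 0.0402). Resf1, a retroelement silencing factor, had 67.3 and 64.4 RPM in Gel and 66.8 and 59.3 RPM in CuNZ@Gel, which overlap (-0.06 ± 0.08), and was called higher with the trend removed (0.22, limma adjusted p = 0.0340).

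Among the other 244 tested genes with a numbered Zfp symbol, 129 were lower and 14 higher (52.9% and 5.74%, against 36.1% and 20.5% of all genes), with a median change of -0.33 and a median mean log2 level of 4.87, above the 4.25 of the Zfp9xx genes. The counts with the trend removed were 52 lower and 24 higher, where all genes gave 15.4% and 20.7%, with a median of -0.12, the same to 2 decimals as that of the Zfp9xx genes. Of 6 tested KRAB genes studied singly 3 were lower and 0 higher on the deposited scaling, namely Zfp809, Zfp568 and Zfp708, named here after their values were seen. With the trend removed 3 of the 6 were again lower and 0 higher, but Zfp809 (-0.06) and Zfp708 (-0.33) were not called. Rslcan18 of the sex-limitation cluster was lower, but not called with the trend removed (-0.21, limma adjusted p = 0.0911). Of 10 tested genes that sense or restrict repeat nucleic acids 6 were lower and 0 higher, against 36.1% and 20.5% of all genes. Removing the trend left 1 of the 10 lower and 1 higher. All of these counts share the same 4 libraries and the same scaling as those of the Zfp9xx genes.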

How the data were processed

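The authors deposited, per library, log2 values for 80929 regions; reversing the logarithm gave whole reads within 0.1 for 100% of low values, so they were read as log2(RPM + 1). The submitters' processing notes name MACS2 2.2.8, Picard 2.27.5, fastp 0.23.1, SAMtools 1.17 and Bowtie2 2.3.4.3, with the build GRCm39. The authors' deposited peak lists, called per library, hold a fold enrichment (ratio), -log10 p and q values and a score; merging them with bedtools 2.31.1 (gap of at most 1 base) gave 80929 regions in the tables' order and so the GRCm39 coordinates, and 77101 of 77103 regions lay on the chromosome that RefSeq gives for their gene. The tests omit 4 rows that carry no gene name.

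Genes took log2(sum of RPM + 1). Under cyclic loess the trend was removed over regions and the corrected RPM were then summed, except where loess on gene sums is named. The filter kept features with at least 10 reads at the median depth in 2 libraries and 15 reads in all. They were tested by limma 3.58.1 in R 4.3.3, two-sided, with a trend on intensity. Benjamini-Hochberg adjustment ran over 25900 genes or 77014 regions, with a threshold of 0.05. The gene fit was also run on simulated reads. These held no trend of change with level, so the simulation does not cover that property of the data. The fold scale understates changes of low values. The Zfp9xx members, the gene lists and the rule for named genes were chosen with earlier results of these data known. The rule names up to 12 called genes in each direction, the 3 highest genes, the 3 with most regions, the 3 highest not called, up to 4 with regions called both ways, the 6 largest region rises and falls, 6 partner genes and the top gene of each cluster; other members appear for completeness. Lists: KRAB partners, single KRAB genes, sex-limitation cluster, repeat sensing, other numbered Zfp genes, and macrophage, fibroblast, lymphocyte and epithelial markers. Alternatives covered scaling, filters, voom, the replicate block, single libraries left out and peak thresholds. Protein features were not analysed here.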

Additional observations from a re-analysis of the deposited data

How the results depend on the processing

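Numbers of Zfp9xx genes called higher and lower were 1 and 11 as reported. They were 2 and 3 with cyclic loess, 2 and 5 with region totals, and 0 and 28 on background pileup; the strongest region of each gene gave 1 and 15 (15.6% and 40.2% of all genes), and cyclic loess on gene sums, added after the data were seen, 1 and 8 (24.2% and 22.8%). Leaving out 1 library gave 1 higher and 9 to 12 lower (15.6% to 19.4% and 30% to 34.7% of all genes). Regions called higher and lower were 7 and 17 as reported, 5 and 7 with cyclic loess, 10 and 8 with region totals, and 1 and 39 on background pileup. The stricter filter, which keeps fewer regions, gave 3 higher and 17 lower of 38 (15.3% and 33.5% of all regions kept). Leaving out 1 library gave 3 to 7 higher, with 3 without Gel replicate 2, and 12 to 17 lower (15% to 19.4% and 15.7% to 21.6% of all regions). Regions with peaks in both CuNZ@Gel libraries only numbered 1, and 2 at a -log10 q of at least 5.

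Signs changed in these cases, called or not: on background pileup, Zfp941 was at -0.31 and the rising Zfp949 region at -0.29; with cyclic loess, Zfp948 was at 0.25, Zfp950 at 0.027, Zfp956 at 0.15, Zfp958 at 0.014, Cbx5 at 0.086, Morc3 at 0.19 and Resf1 at 0.22. With region totals Zfp946 was at 0.15, Zfp948 at 0.18, Zfp950 at 0.093, Zfp952 at 0.010, Zfp956 at 0.20 and Resf1 at 0.22; with cyclic loess on gene sums Zfp948 was at 0.19, Zfp950 at 0.040, Zfp956 at 0.13 and Resf1 at 0.29; with median-of-ratios factors Zfp946 was at 0.0040, Zfp948 at 0.032, Zfp956 at 0.056 and Resf1 at 0.065. Apart from the construction of each scaling, the cause was not tested. Of the 34 named genes and regions, 27 kept direction and side of the threshold with median-of-ratios factors, 33 with voom and 34 with no filter. Leaving out 1 library moved Resf1 between -0.15 and 0.021, the latter without CuNZ@Gel replicate 2.

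Same-numbered libraries share only a number: their deviations from the group means correlated at 0.04 over genes and 0.02 over regions. A fit with the replicate block called 1 gene higher against 11 lower (21.6% and 37.3% of all genes); among regions, 7 were higher against 17 lower (21.7% and 22.4% of all regions). The planned protein features were not run. Depth limits the low regions: 16 tested member regions had a mean log2 value under 2.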

Other observations

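Values of 3 further KRAB partners, chosen after they were seen, follow. Cbx3, which encodes HP1 gamma, had 147.2 and 151.6 RPM in Gel and 72.3 and 72.6 RPM in CuNZ@Gel, a change of -1.03 ± 0.06 (log2 ± SE; limma adjusted p = 6.57e-11), still called at -0.28 with the trend removed. Dnmt1, the maintenance DNA methyltransferase, had 95.9 and 91.6 RPM in Gel and 117.4 and 119.9 RPM in CuNZ@Gel, a rise of 0.34 ± 0.06 (limma adjusted p = 7.82e-05), and stood at 0.61 with the trend removed. Kdm1a, which encodes a histone demethylase, had 27.6 and 32.5 RPM in Gel and 35.3 and 37.9 RPM in CuNZ@Gel, a rise of 0.28 ± 0.10 (limma adjusted p = 0.0293). On background pileup Dnmt1 and Kdm1a were at -0.71 and -0.75.

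The third region of Zfp961, chr8:72725878-72726054, named after its values were seen, had 1.57 and 1.55 RPM in Gel and 0.485 and 0.622 RPM in CuNZ@Gel. Its groups did not overlap, and it was called lower with the trend removed (-1.09, limma adjusted p = 0.00627) but not on the deposited scaling (-0.72, limma adjusted p = 0.0653).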
